A study of Arabidopsis thaliana with 6 samples.

Results

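In 14 Arabidopsis thaliana genes, the share of at least 1 isoform differed from wild type by 20 percentage points or more, in the same direction, in both fio1 mutant libraries. The share of an isoform is its count divided by the summed count of its gene in the same library. The genes were chosen on these shares, from 2585 genes with 2 or more listed isoforms and at least 50 summed counts in each library, out of 33314 genes in the table. The 14 genes are 0.542% of the genes tested. Among the genes tested, 838 had counts on only 1 isoform and could not meet the rule, while 1747 had counts on 2 or more. Percentages of the genes tested are over all 2585. Their shares are given below as a description and carry no test, because they are the values that chose the genes.

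The study examined FIONA1 (FIO1), an m6A RNA methyltransferase, in seedlings of the Col-0 ecotype. Groups were Col-0 wild type, fio1-1 and fio1-5 (called fio1-2 when the samples were named), all collected at 14 days after growth on MS medium in long days with no other treatment. The fio1-1 allele lacks a short stretch of amino acids of the methyltransferase domain, and fio1-5 is a deletion made with CRISPR, a single allele in each case. RNA came from pooled seedlings, and the deposited tables hold 1 column for each genotype. The series lists an Illumina and an Oxford Nanopore sample of each genotype and its design text names Nanopore direct RNA sequencing, but the columns do not name the platform their counts came from. With 1 library per genotype, a difference between libraries and a difference between genotypes cannot be told apart, and no test between genotypes was possible. Intervals given below are exact 95% intervals and cover counting error only.

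FIO1 is the plant relative of human METTL16, and this family is known to methylate the U6 small nuclear RNA. U6 pairs with the first bases of the intron at the 5′ splice site while the spliceosome is activated. Isoforms of a gene can differ in the 5′ or 3′ end chosen for an intron, in whether an intron is kept, in whether an exon is skipped, or in where the transcript begins and ends. A shift of a 5′ or 3′ splice site by a number of bases that is not a multiple of the codon length changes the reading frame when it lies in coding sequence.

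Library totals ran from 4351738 to 4683006 estimated counts. The counts of FIO1 (AT2G21070) itself were 25 in Col-0, 17 in fio1-1 and 30 in fio1-5, which does not check either allele, since neither removes the whole transcript. The shoot markers RBCS1A and LHCB1.3 had at least 41644 counts in every library. LHCB1.3 was lower in both mutants (177860 in fio1-1 and 218453 in fio1-5, beside 255151 in Col-0). RBCS1A was lower in neither mutant, with 41644 for Col-0, 41810 for fio1-1 and 57331 for fio1-5. The shoot marker RCA, itself among the 14 genes, had 137 for Col-0, with fio1-1 lower (107) and fio1-5 higher (147). The shoot markers thus did not move together. In the same libraries, the flower markers AP1, LFY and AG had at most 1. The root markers LRX1, PIN2, COBL9 and EXPA7 had between 0 and 133 counts each, and all 4 were higher in both mutant libraries than in Col-0 (220, 261 and 98 counts summed in fio1-1, fio1-5 and Col-0). Their part in the shares was not tested, and fewer cells of a type and less RNA per cell cannot be told apart in whole seedlings. The 14 genes had gene sums from 51.0 to 215 counts, with a Col-0 median of 102 beside 163 for all genes tested. Of these genes, 5 reached 100 counts in every library, and none of the 906 genes with 200 or more counts in every library met the rule. Among genes with a Col-0 count, the median Col-0 count was 59.1 with 1 listed isoform and 19 with 2 or more. Genes with 1 listed isoform held 67.3% of the Col-0 counts. Whether this comes from how reads were assigned to isoforms was not tested.

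In the 11 genes of the 14 for which RefSeq holds exon structures of both the isoform with the largest gain and the isoform with the largest loss of share, the pair differed by an alternative 5′ splice site in 4 genes. An alternative 3′ splice site set the pair apart in 2 genes and a retained intron in 3, while 2 genes had several differences. For comparison, the 2 most counted isoforms of 1434 tested genes with structures differed by an alternative 5′ splice site alone in 12.2%, by an alternative 3′ splice site alone in 22.3% and by a retained intron alone in 33.8%. With 11 genes, no kind can be called particular to the set.

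Sequences around the alternative 5′ splice sites are shown first, because they are what differs between the isoforms and were not used to choose the genes. Each run holds the last 10 exon bases and the first 10 intron bases on the transcript strand, 5′ to 3′, from the RefSeq TAIR10.1 genome, with the first 6 intron bases in capitals. In each pair the first site was used less in both mutants than in Col-0 and the second was used more. The pairs lie at chr3:7423319-7423344 on the plus strand (GATA24), chr4:18561979-18562002 on the minus strand (AT4G40050), chr3:21935794-21935821 on the minus strand (UTR6) and chr5:9194092-9194116 on the plus strand (CLC-D).
GATA24 used less: tagggtactgGTAATAaaag
GATA24 used more: gaacaataggGTACTGgtaa
AT4G40050 used less: tgcattcaagGCAGGTttgt
AT4G40050 used more: ttcaaggcagGTTTGTcata
UTR6 used less: tttcttaaatGTAAACaggt
UTR6 used more: atgtaaacagGTTCTCtcca
CLC-D used less: gtcaactagtGTAAGGtctc
CLC-D used more: ctagtgtaagGTCTCTagct

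The sites of a pair were 4, 5, 6 or 8 bases apart. The site used more lay downstream in AT4G40050, UTR6 and CLC-D and upstream in GATA24. Counting from 1 at the first intron base, the fourth intron base was A in 3 of the 4 sites used less and in none of the sites used more. The exception among the sites used less is AT4G40050, whose intron begins with GC in place of GT. The last exon base was G in all 4 sites used more and in 2 of the 4 sites used less, those of GATA24 and AT4G40050.

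Over the 483 groups of alternative 5′ splice sites with at least 20 counts in each library, 5 groups shifted by 20 percentage points or more in both mutants (1.04%). They are those of the 4 genes above and of AT4G21910, so the base counts at this size add only that gene: 3 of 5 sites used less and 0 of 5 sites used more had A at the fourth intron base. Among the 8 groups that shifted by 10 to 20 points, none of them in the 14 genes, A stood there in 4 sites used less and 2 sites used more. Among the 19 groups that shifted by 5 to 10 points the numbers were 6 and 6. Among the 153 groups that shifted by under 5 points they were 76 and 56. These sizes cover only the 185 of the 483 groups that moved the same way in both mutants. G as the last exon base stood at 3 sites used less and 5 sites used more in the 5 groups. In the 8 groups the numbers were 5 and 4, in the 19 groups 14 and 16, and in the 153 groups 97 and 91. Thus G changed direction between sizes. A was more frequent at the sites used less, apart from the equal numbers at 5 to 10 points, so neither base differed in the same direction at every size. These differences were not tested. Of all 16430 annotated 5′ splice sites of the genes tested, 52.6% had A at this base and 75.4% had G as the last exon base. Of the 483 groups, 155 (32.1%) had their sites within 10 bases of each other, with a median of 38 bases over all groups.

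GATA24 (AT3G21175, also ZML1) encodes a GATA-type zinc finger transcription factor. Isoform 1, which uses the downstream site at 7423335, had 0 of 74 counts in fio1-1, 0 of 58 in fio1-5 and 25 of 69 in Col-0, where it made up 36.2% (25.0 to 48.7). The exact intervals of these zeros reach 4.86% in fio1-1 and 6.16% in fio1-5 (4.05% and 5.17% if 3 counts are taken as the limit). Isoform 3 uses the same upstream site as isoform 2 and has a shorter coding sequence of 651 bases. It keeps an intron of 371 bases (7423762 to 7424132) and ends soon after it, at 7424156, where isoform 2 ends at 7424989. Isoform 3 had 11, 12 and 0 counts in fio1-1, fio1-5 and Col-0. Thus isoform 1 was counted in Col-0 and isoform 3 in the mutants, while isoform 2 was the most counted in every library. Isoforms 1 and 2 have coding sequences of 894 and 888 bases, a difference of 6 bases.

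AT4G40050 encodes a protein of a conserved family of unknown function. Isoform 1, with the GC site at 18561992, had 27 of 101 counts in fio1-1, 19 of 74 in fio1-5 and 84 of 137 in Col-0. Its share was 26.7% (18.4 to 36.5) and 25.7% (16.2 to 37.2) in the mutants and 61.4% (52.6 to 69.5) in Col-0, so both mutants lay below the Col-0 interval. The most counted isoform was isoform 2 in both mutants and isoform 1 in Col-0. The sites are 4 bases apart in coding sequence, and the annotated coding sequences are 1377 bases for isoform 2 and 1800 bases for isoform 1.

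UTR6 (AT3G59360, a nucleotide sugar transporter whose name does not refer to an untranslated region) differed at an intron in its 3′ untranslated region. Isoform 1 had 7 of 148 counts in fio1-1, 1 of 168 in fio1-5 and 67 of 207 in Col-0. Isoform 2, with the downstream site, had 95.3% (90.5 to 98.1), 99.4% (96.7 to 100) and 67.4% (60.8 to 74.0) in the same order. The coding sequence is 1218 bases in both isoforms, so the shift by 8 bases leaves the annotated protein alone.

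CLC-D (AT5G26240) encodes a member of the chloride channel family. Isoform 2 had 19 of 81 counts in fio1-1, 27 of 121 in fio1-5 and 63 of 124 in Col-0. The shares were 23.5% (14.8 to 34.2), 22.3% (15.2 to 30.8) and 50.7% (41.7 to 59.9), with both mutants below Col-0 and close to each other. The site used more lies 5 bases downstream in coding sequence, and the coding sequence is 2379 bases in isoform 1, which gained share, and 2319 bases in isoform 2.

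**Figure D1:**
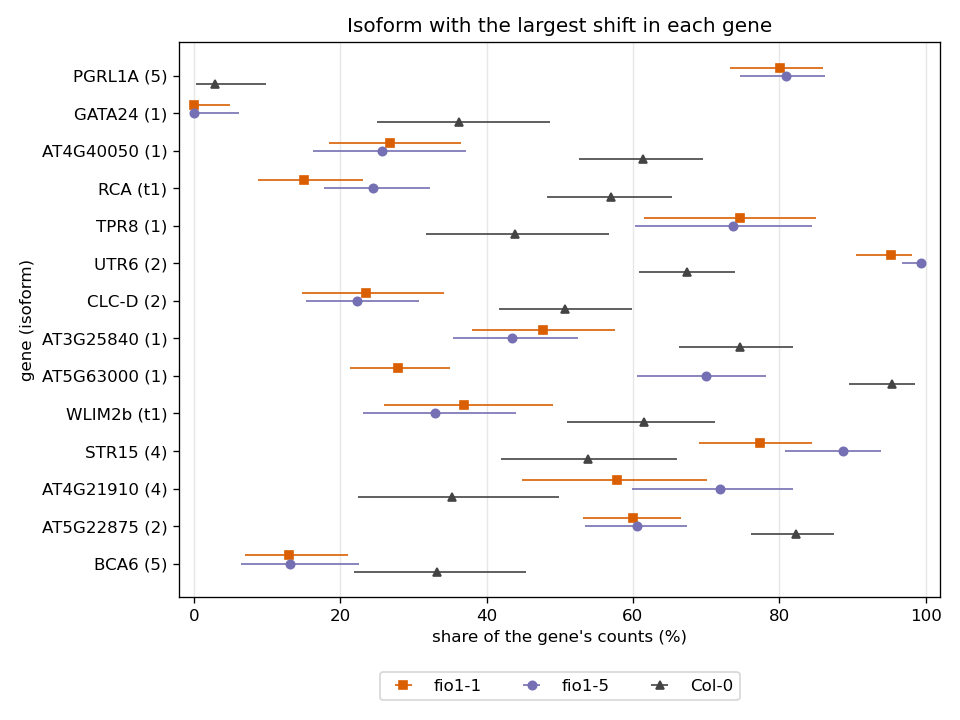
Share of the gene's counts (%, horizontal axis) of the isoform with the largest shift in each of the 14 genes (isoform in brackets), for fio1-1, fio1-5 and Col-0, with exact 95% intervals that cover counting error only. The mutants lie together on the same side of Col-0 in every gene by choice of the genes, AT5G63000 is the gene in which the mutants lie far apart, and the intervals touch Col-0 in AT4G21910 and BCA6.

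The largest shift of the set was at an alternative 3′ splice site in PGRL1A, and TPR8 had the other pair of this kind. Runs below hold the last 10 intron bases and the first 10 exon bases, 5′ to 3′ on the plus strand of RefSeq TAIR10.1, with the last 2 intron bases in capitals. They cover chr4:12007772-12007797 (PGRL1A) and chr4:5254603-5254625 (TPR8), both in coding sequence.
PGRL1A used less: cttccttaAGgtccagtagg
PGRL1A used more: taaggtccAGtaggaggaga
TPR8 used less: ttgtgaacAGcagaacacga
TPR8 used more: tgaacagcAGaacacgagca

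PGRL1A (AT4G22890) encodes a thylakoid membrane protein of cyclic electron flow around photosystem I. Isoform 5, with the downstream site, had 133 of 166 counts in fio1-1, 153 of 189 in fio1-5 and 2 of 71 in Col-0. Its share was 80.1% (73.2 to 85.9) and 80.9% (74.6 to 86.3) in the mutants and 2.82% (0.343 to 9.81) in Col-0, which is far below both. Isoform 1, the most counted in Col-0, had 25, 23 and 46 counts, and isoform 3 had 6, 3 and 17. The sites are 6 bases apart, and the annotated proteins have 322 codons in isoform 5 and 324 in isoforms 1 and 3.

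TPR8 (AT4G08320) encodes a tetratricopeptide repeat protein. Isoform 1, with the downstream site, had 44 of 59 counts in fio1-1, 42 of 57 in fio1-5 and 29 of 66 in Col-0. The shares were 74.6% (61.6 to 85.0), 73.7% (60.3 to 84.5) and 43.9% (31.7 to 56.7), and the most counted isoform was isoform 1 in the mutants and isoform 2 in Col-0. The sites are 3 bases apart, which changes the annotated protein by 1 codon, 426 against 427. Genes on the opposite strand overlap TPR8, and the overlapping genes together had 154, 131 and 214 counts in the same order; their part in the TPR8 counts was not tested. In all 320 tested genes whose 2 most counted isoforms differed by an alternative 3′ splice site alone, 33.8% of the pairs were 3 bases apart and 68.8% were within 10 bases.

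Retained introns set the pair apart in STR15, AT5G22875 and BCA6. STR15 (AT4G35770, also SEN1) encodes a sulfurtransferase-like protein known as a gene induced by senescence and darkness. Isoform 4, which keeps 3 introns that other isoforms splice, had 96 of 124 counts in fio1-1, 92 of 104 in fio1-5 and 39 of 72 in Col-0. The shares were 77.4% (69.0 to 84.4), 88.6% (80.7 to 93.9) and 53.9% (42.0 to 66.0), and isoform 4 was the most counted in every library. Isoform 2 had 11, 2 and 19 counts, and isoform 1 had 10, 7 and 14. The coding sequence of isoform 4 is 369 bases, beside 549 bases in isoform 1 and 486 bases in isoform 2.

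The share of counts that kept each intron can be read intron by intron, and the introns of a gene are not independent, since they sit in the same isoforms. In STR15 the intron at 16945514 to 16945603 was kept in 53.9% of Col-0 counts, beside 77.4% for fio1-1 and 88.6% for fio1-5. The intron at 16945675 to 16945774 was kept in 83.1% and 91.5% of the mutant counts and again in 53.9% for Col-0. The intron at 16945829 to 16945908 was kept in 91.9% and 93.5% in the mutants and 80.2% in Col-0. The 5′ splice sites of these introns are shown with the same window as above, on the plus strand of chromosome 4, at chr4:16945504-16945523, chr4:16945665-16945684 and chr4:16945819-16945838.
STR15 first intron kept: gtcggatcagGTTTTCatca
STR15 second intron kept: aatcataatcGTAAGTttca
STR15 last intron kept: tctcactgctGTATGTgtgt

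AT5G22875 encodes an uncharacterized small protein. Isoform 2 had 129 of 215 counts in fio1-1, 123 of 203 in fio1-5 and 158 of 192 in Col-0, and its share was 59.9% (53.1 to 66.6), 60.6% (53.5 to 67.4) and 82.3% (76.1 to 87.4). Isoform 3, which keeps an intron of 584 bases in the 5′ untranslated region, had 65, 66 and 20 counts, with shares of 30.3%, 32.5% and 10.4%. The mutants were close to each other and isoform 2 stayed the most counted in every library. All 3 isoforms share a coding sequence of 210 bases. With shares from TPM, isoform 2 differed from Col-0 by -14.8 points in fio1-1 and -11.9 in fio1-5, in place of -22.4 and -21.8, and the gene no longer met the rule.

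BCA6 (AT1G58180) encodes a beta carbonic anhydrase, an enzyme that interconverts carbon dioxide and bicarbonate. Isoform 5, which keeps an intron of 100 bases in the coding sequence, had 13 of 101 counts in fio1-1, 10 of 77 in fio1-5 and 22 of 67 in Col-0. The shares were 12.9% (7.04 to 21.0), 13.1% (6.41 to 22.6) and 33.2% (21.8 to 45.4), the smallest shift of the set, with an overlap of the fio1-5 and Col-0 intervals. From TPM the differences were -17.3 and -17.5 points, and the gene no longer met the rule. Isoform 3, which keeps another intron of 93 bases, had 60, 41 and 29 counts. In this gene retention therefore moved both ways, with 1 intron kept at least 10 points less and another at least 10 points more in both mutants. The differences in fio1-1 and fio1-5 were -5.89 and -14.2 points for an intron of 95 bases. They were -0.15 and -3.78 points for an intron of 80 bases, and 1.48 and 0.19 points for an intron of 102 bases.

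Of 1240 introns kept in some and spliced in other isoforms of the genes tested, 20 were kept at least 10 percentage points more than in Col-0 in both mutants (1.61%) and 12 at least 10 points less (0.968%). The 14 genes held 20 of the 1240 introns, in 8 genes, and 8 of these were kept more and 1 was kept less. These values come from the same counts that chose the genes and are a description. Of the 1220 introns of the other genes tested, 12 were kept more and 11 less, and the median difference was 0 in both mutants.

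**Figure D2:**
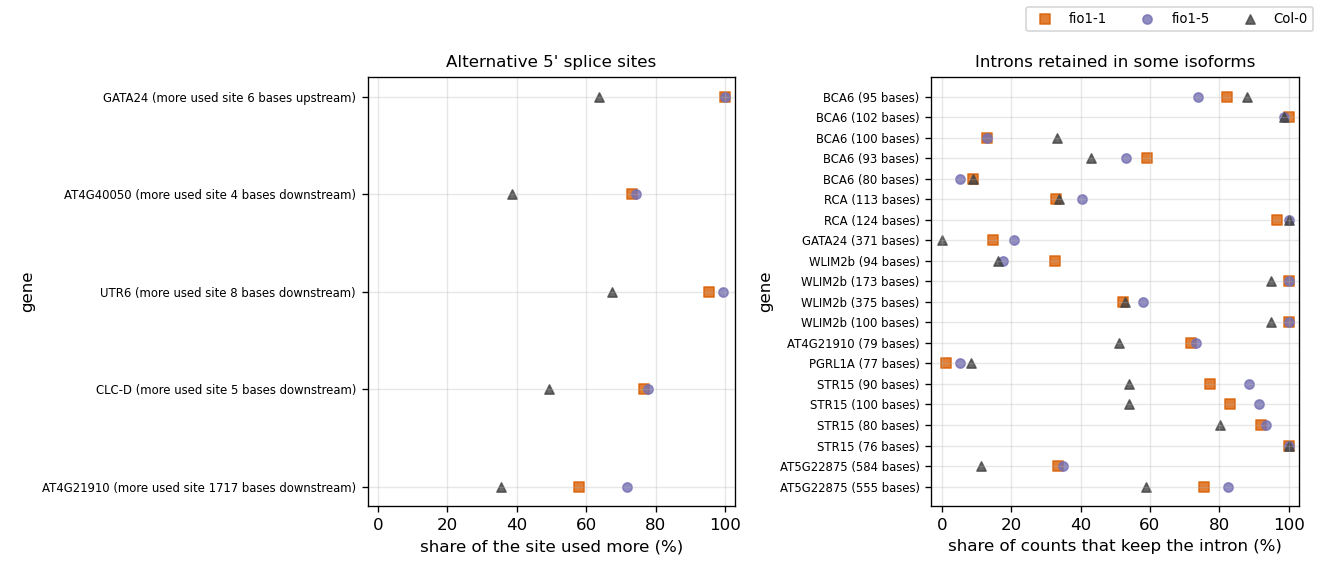
Left, share (%) of the 5′ splice site used more in the mutants, in the 5 groups that shifted by 20 points or more; right, share of counts (%) that keep each of the 20 introns retained in some isoforms of the 14 genes, labelled with intron length. Points are single libraries; both mutants lie above Col-0 for all sites at left by choice of the genes, and at right by at least 10 points for 8 introns, of STR15 (3), AT5G22875 (2), GATA24, AT4G21910 and BCA6 (93 bases).

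Several differences separated the isoforms of AT3G25840 and AT4G21910. AT3G25840 encodes a protein kinase. Isoform 1 had 52 of 109 counts in fio1-1, 60 of 137 in fio1-5 and 97 of 130 in Col-0, or 47.7% (38.1 to 57.5), 43.5% (35.3 to 52.5) and 74.6% (66.2 to 81.8). Isoform 2, the most counted in both mutants, skips an exon, has another 3′ end and has a coding sequence of 2022 bases in place of 2808.

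AT4G21910 encodes a transporter of the MATE family. Isoform 4 had 37 of 64 counts in fio1-1, 51 of 71 in fio1-5 and 18 of 51 in Col-0. The shares were 57.8% (44.8 to 70.1), 71.8% (59.9 to 81.9) and 35.3% (22.4 to 49.9), so the fio1-1 and Col-0 intervals overlapped. From TPM the differences were 18.2 and 34.3 points, and the gene no longer met the rule, nor was it in the set after thinning, which took a library below 50 counts. Isoform 4 uses a 5′ splice site 1717 bases downstream of that of isoform 1 and keeps an intron of 79 bases. The coding sequence is 1530 bases in isoform 4 and 1524 bases in isoform 1.

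In RCA, WLIM2b and AT5G63000 the shift involved an isoform that the table lists but RefSeq does not hold, so its structure is not given here. RCA (AT2G39730) encodes Rubisco activase, which restores Rubisco activity in the light. Its isoform t1 had 16 of 107 counts in fio1-1, 36 of 147 in fio1-5 and 78 of 137 in Col-0, or 15.01% (8.80 to 23.1), 24.5% (17.8 to 32.3) and 56.9% (48.2 to 65.4). Isoform 2 had 60, 66 and 39 counts and isoform 3 had 30, 45 and 20. A gene on the opposite strand overlaps RCA, with 52, 27 and 33 counts in the same order, and its part in the RCA counts was not tested. The gene sum of 137 in Col-0 stands beside 41644 counts of RBCS1A, the Rubisco small subunit, in the same library. The sources used here do not say how reads that fit several isoforms were counted.

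WLIM2b (AT3G55770, named from RefSeq) encodes a LIM domain protein that binds actin filaments. Isoform t1 had 27 of 73 counts in fio1-1, 28 of 85 in fio1-5 and 59 of 96 in Col-0, or 36.9% (26.0 to 49.1), 32.9% (23.1 to 44.0) and 61.5% (51.0 to 71.2). The lost share was spread over several isoforms, of which isoform 4 gained most, with 24, 33 and 19 counts.

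AT5G63000 encodes a protein of the Tim17/Tim22/Tim23 family of mitochondrial import proteins. Isoform t1 had 130 of 180 counts in fio1-1, 34 of 113 in fio1-5 and 5 of 108 in Col-0. The shares were 72.2% (65.1 to 78.6), 30.1% (21.8 to 39.4) and 4.65% (1.52 to 10.5), with all 3 libraries apart from each other. It is the gene of the set in which the alleles differed by more than 20 points, with t1 42.1 points lower in fio1-5 than in fio1-1. From TPM, isoform 1 differed from Col-0 by -75.4 points in fio1-1 and -39.2 in fio1-5, in place of -67.5 and -25.4. Over all genes tested, 22 (0.851%) had an isoform 20 points or more apart between the alleles.

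**Figure D3:**
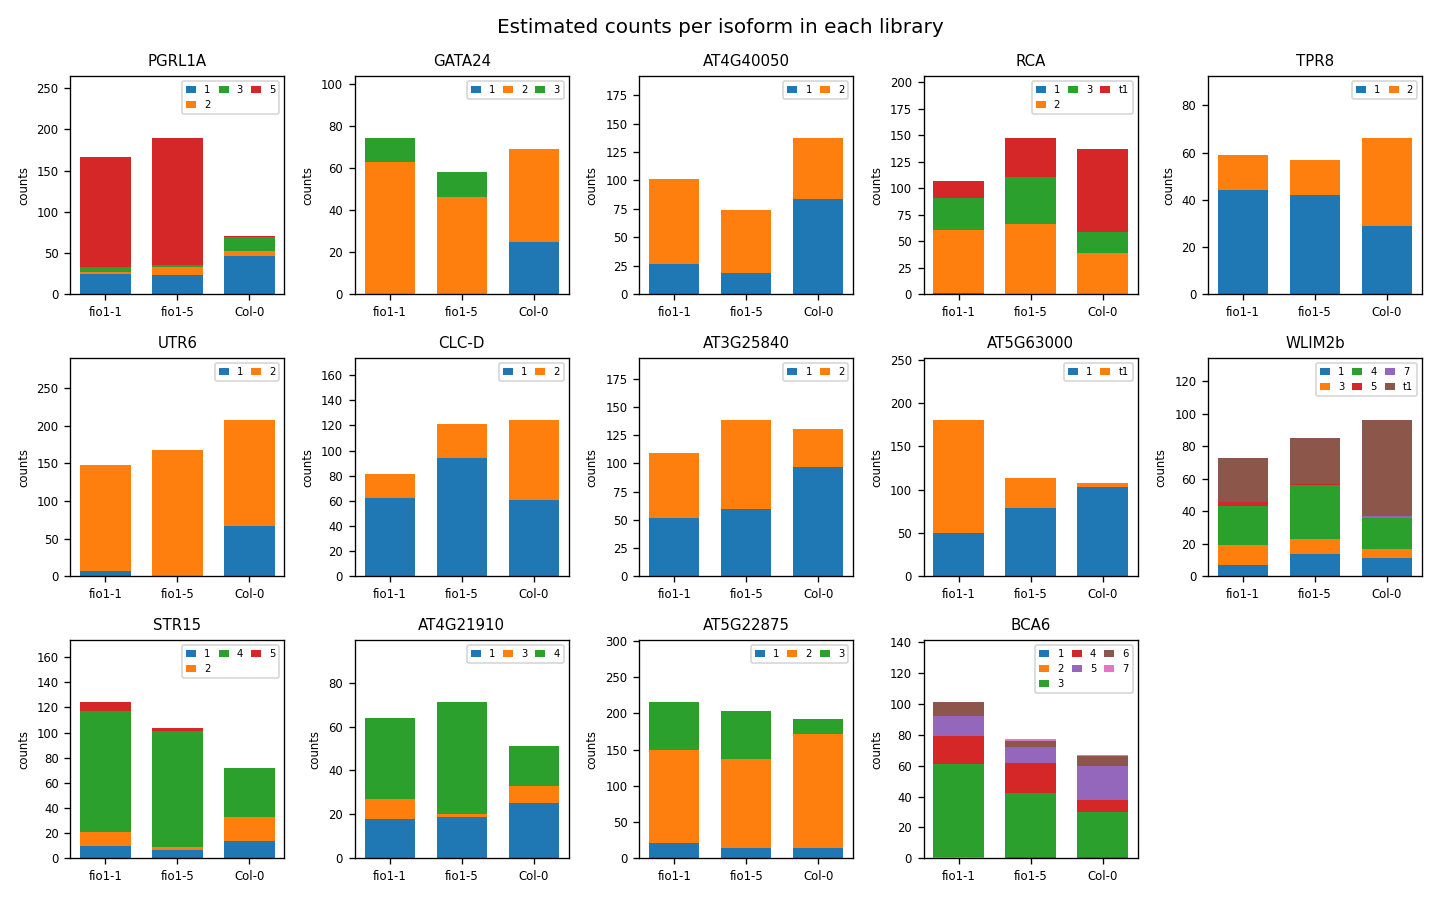
Estimated counts (vertical axis, own scale in each panel) of each isoform in the fio1-1, fio1-5 and Col-0 libraries, stacked by isoform number for the 14 genes; isoforms with no count are left out. Isoform 5 of PGRL1A fills most of the mutant bars and 2 of 71 counts in Col-0, and isoform t1 of AT5G63000 fills most of the fio1-1 bar (130 of 180 counts) but not of the fio1-5 bar (34 of 113).

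The 14 genes list 52 isoforms, of which 46 had at least 1 count and 23 passed the threshold in both mutants. In 7 of the 14 genes the most counted isoform differed between Col-0 and both mutants, and each time the mutants shared the same one (PGRL1A, AT4G40050, RCA, TPR8, CLC-D, AT3G25840 and AT4G21910). Over all genes tested this count was 31 (1.2%). Exact intervals of an isoform lay apart from Col-0 in both mutants in 12 of the 14 genes, all but BCA6 and AT4G21910, and in 56 of all genes tested (2.17%). The shift was larger in fio1-1 than in fio1-5 in 5 genes.

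In each mutant alone, 39 genes passed the threshold in fio1-1 (1.51%) and 28 in fio1-5 (1.08%), both against the same Col-0 library, and 15 genes passed it in both on any isoform. No isoform moved 20 points in opposite directions. At the threshold, the last genes inside were AT4G21910 with a smaller shift of 22.5 points, AT5G22875 with 21.8 and BCA6 with 20.2. The first genes outside were AT1G15280 with 19.2, AT3G11930 with 18.9 and NIC1 (AT2G22570), a nicotinamidase of NAD salvage, with 17.9. AT1G15280 isoform 1 had a share of 50.6% in Col-0, beside 13.04% in fio1-1 and 31.4% in fio1-5.

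**Figure D4:**
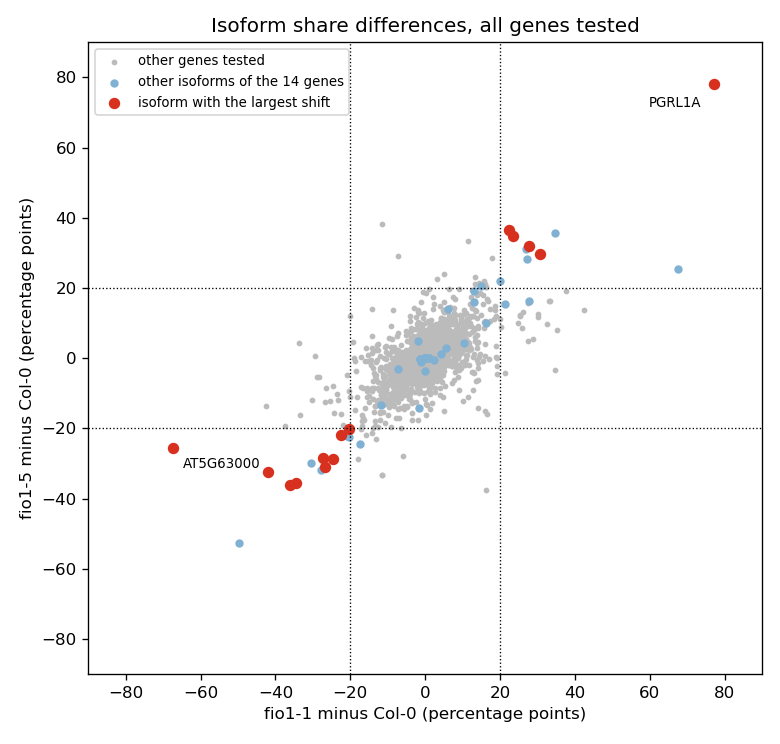
Share difference from Col-0 (percentage points) of every isoform of the genes tested, fio1-1 on the horizontal and fio1-5 on the vertical axis, which share the Col-0 library; dotted lines mark 20 points. The isoforms with the largest shift lie in the upper right and lower left corners, from which they were chosen, with PGRL1A at 77.3 and 78.1.

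None of the genes listed for splicing, the clock, flowering time or methylation was in the set. RCA, from the list of shoot markers, was the only listed gene in it. The lists need not hold every gene of these kinds. Genes of the set outside the lists, such as the protein kinase AT3G25840, may still belong to one of them. Of 20 SR splicing factors, 6 were tested and none passed in either mutant, with the largest shift in SCL30a (8.20 points). Of 19 listed genes for other splicing factors, among them those of U1, U6 and U2AF, 5 were tested, with at most 0.685 points (LSM8). Of 22 circadian clock genes, 6 were tested, with at most 9.81 points in LUX, a component of the evening complex. Of 32 flowering time genes, 6 were tested, with at most 8.83 points in MAF2, a floral repressor related to FLC. The 2 tested genes of 13 m6A writers, erasers and readers reached 2.06 points (ECT3), and the 3 tested of 4 S-adenosylmethionine synthetases reached 0.246 points (SAM1). Each is the smaller of the shifts in both mutants. RSZ22, LIS, U2AF35A and SAM2 had all their counts on 1 isoform in every library, so no shift could show in them. Genes under 50 counts in any library or with 1 listed isoform were not tested, and why counts were low was not examined.

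PGRL1A had gene sums of 166 and 189 counts in the fio1-1 and fio1-5 libraries, beside 71 for Col-0. It was the only gene of the 14 at least 2-fold above Col-0, in both mutants, with log2 ratios of 1.35 (0.94 to 1.77) and 1.42 (1.03 to 1.85) after scaling by trimmed mean of M values (TMM). Of all genes tested, 2.67% in fio1-1 and 0.967% in fio1-5 were at least 2-fold higher. None of the 14 was at least 2-fold lower, beside 0.696% and 1.08% of all genes tested. STR15 was above Col-0 in both mutants, with log2 ratios of 0.91 (0.48 to 1.35) and 0.55 (0.10 to 1.00). AT5G63000 was above Col-0 in fio1-1 (0.86, 0.51 to 1.22), while its interval held 0 in fio1-5 (0.08, -0.31 to 0.48). AT4G40050 was below Col-0 in fio1-5 (-0.87, -1.30 to -0.45), and its fio1-1 interval held 0. In fio1-1 alone, the interval lay above 0 in BCA6 (0.72, 0.26 to 1.19) and, barely, in AT5G22875 (0.29, 0.003 to 0.58), and below 0 in CLC-D (-0.48, -0.91 to -0.07) and UTR6 (-0.36, -0.67 to -0.05). The median log2 ratio of the 14 genes was 0.10 in fio1-1 and 0.09 in fio1-5, beside -0.01 and -0.05 for all genes tested. From the deposited TPM, which divide by isoform length, the medians of the 14 genes were -0.12 and -0.12, beside -0.15 and -0.20 for all genes tested, so the sign of these small medians depends on the unit.

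**Figure D5:**
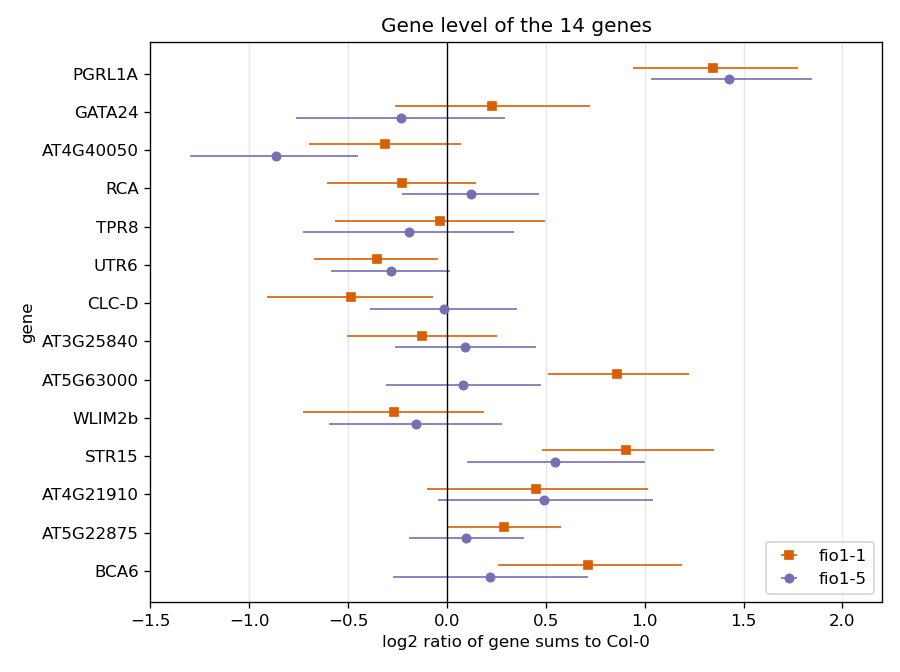
Log2 ratio of gene sums to Col-0 (TMM-scaled, horizontal axis) in fio1-1 and fio1-5 for the 14 genes, with 95% intervals that cover counting error only. PGRL1A lies above 1 in both mutants and AT4G40050 has the lowest value, -0.87 in fio1-5.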

How the data were processed

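The authors describe base calling, filtering, correction and mapping with minimap2 (2.17-r941, per the submitters' processing notes) for the Nanopore direct RNA reads of the series; the columns used here do not name their platform. The authors deposited estimated counts per isoform, which need not be whole, and TPM, counts scaled to isoform length and to a fixed total per library, with 1 column for each of fio1-1, fio1-5 and Col-0. The tool and annotation that assigned reads to isoforms, the handling of reads that fit several isoforms, and the use of strand are not given in the sources used here. Deposited correlation tables were not used.

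Isoform shares were computed from the counts, which were rounded to whole numbers for Clopper-Pearson intervals (SciPy 1.17.1). Exon structures, sites and sequences came from RefSeq TAIR10.1 by isoform identifier; 6094 of 6758 isoforms of the genes tested matched. The tables carry no coordinates. An alternative 5′ splice site group is a set of introns of overlapping exons with the same 3′ end. Gene sums were scaled with TMM (edgeR 4.0.16), 0.5 counts were added before log2, and intervals of ratios are conditional binomial. The rule for named genes took the 15 highest ranked members with 100 counts in each library, members of the lists, the 6 highest in the classes of alternative 5′ splice sites and of retained introns, and 3 genes on each side of the threshold; the remaining members were added so that every member is described. The set and the lists were chosen with earlier results of these data known. Alternatives were other count minimums and thresholds, shares from TPM, annotated isoforms only, isoforms with the same introns merged, libraries thinned to the smallest total, and for gene sums total counts, DESeq2 1.42.0 size factors, TPM and 2 added counts. The share rule was run on simulated counts with shifts larger than the threshold and counting error only. That run does not show how the rule behaves near the threshold or with differences between libraries.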

Additional observations from a re-analysis of the deposited data

How the results depend on the processing

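No paired analysis was possible because the tables hold 1 column per genotype, and for the same reason no replicate could be left out. The counts below are, in order, genes past the threshold in both mutants, in fio1-1, in fio1-5 and between the alleles, genes whose most used isoform changes in both mutants, genes with an alternative 5′ splice site as their kind, introns kept more in both mutants within the set, and sites used less with A at the fourth intron base, which were 14, 39, 28, 22, 7, 4, 8 and 3. A minimum of 20 counts gave 63, 150, 144, 103, 31, 11, 25 and 6. A minimum of 100 counts gave 5, 12, 10, 8, 2, 1, 2 and 1, and a minimum of 200 counts gave 0, 2, 0, 2, 0, 0, 0 and 0. A threshold of 10 points gave 78, 159, 149, 113, 17, 10, 20 and 6, and one of 30 points gave 4, 15, 11, 6, 3, 2, 1 and 1. The last count came from 5 pairs of sites in the main setting. It came from 10, 1 and 0 pairs with minimums of 20, 100 and 200 counts, and from 11 and 2 pairs with thresholds of 10 and 30 points. Sites used more with A at this base numbered 1 with a threshold of 10 points and 0 in the others. With shares from TPM, 47 genes passed in fio1-5, 34 passed between the alleles and 4 introns were kept more; 20 genes passed in both mutants, of which 11 were among the 14. Leaving out unannotated isoforms gave 11 genes and thinning gave 13, all among the 14, and merging isoforms with the same introns kept all 14. With TPM, the median log2 ratio of the set was -0.12 in fio1-1 (0.10 from counts) and -0.12 in fio1-5 (0.09 from counts).

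For the isoform with the largest shift in each gene, each alternative value was set against the longer side of the counting interval around the Col-0 share. Of 104 such values, 100 moved by less than this and none changed sign. The values without unannotated isoforms and with the same introns merged all equalled the main values. Only those from TPM and from thinning differed from them, so the 100 overstates the agreement. The exceptions came with TPM: AT5G63000 isoform 1 moved to -75.4 and -39.2 points in fio1-1 and fio1-5, and AT5G22875 isoform 2 to -14.8 and -11.9. Gene sums near 50 counts leave wide intervals around these shares, and the spread between plants cannot be had from 1 library per genotype.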
